A study of Saccharomyces cerevisiae with 94 samples.

Results

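The 9 genes described here encode the budding yeast decapping and 5′ decay machinery: DCP1, DCP2, EDC1, EDC2, EDC3, DHH1, PAT1, LSM1 and KEM1, the last of which is the name under which the tables list XRN1. They were taken by gene name from the mRNA entries of the transcript tables, and 8 of the 9 names had an entry, of 5887 mRNA entries in all. EDC2 had none of its own, because under the set of transcript names used here its locus is listed only within an entry shared with the neighbouring gene YER034W. EDC1 had an entry but collected 2 reads in the 46 libraries that have a column of their own, and the other 7 genes had at least 10 reads in at least one column. Each library came from nanopore direct RNA sequencing, in which 1 read is 1 native RNA molecule read from its 3′ end and the length of its poly(A) tail (pA-tail) is estimated from the same molecule. Abundance is given as RPM, the reads of a transcript for every 1000000 reads of its library, and tails in adenosines, from entries with at least 10 reads.

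All groups were Saccharomyces cerevisiae of strain background W303 according to the labels. In the Mex67-AA chase, cells whose mRNA export factor Mex67 carries an FRB tag were given rapamycin, which anchors Mex67 away from the nucleus, at 25 °C for 0 to 30 min, in replicates A, B and C. These cells, the untreated ones included, also carry tor1-1, an fpr1 deletion and RPL13 fused to FKBP12, alleles of the anchor-away system. Wild-type cells were moved from 25 °C to 37 °C for 0 to 20 min (heat chase, replicates A, B and D) or given the transcription inhibitor thiolutin at 25 °C for 0 to 60 min (1 replicate with columns of its own). The Dcp2-AID and Xrn1-AID strains, whose tagged protein is degraded after addition of auxin, were both given the auxin 1-NAA for 2 h at 25 °C, and were both set against the same wild-type control given the same treatment. Pab1-AID cells were given auxin for 1 h or 2 h and were set against cells without auxin, for which the labels give the Pab1-AID genotype although their titles call them a wild-type AID control. The Xrn1-AID strain also carries the anchor-away alleles, as does the Pab1-AID strain with FRB-tagged Mex67, whereas the Dcp2-AID strain carries the auxin receptor alone, so these strains differ in more than the tagged gene. Mex67-AA cells were also given rapamycin and heated to 37 °C, with 16 min in the labels. The study states that rapamycin was added a few minutes before the heat, so the heat itself lasted less than 16 min. The name of the column used for these cells gives another temperature than the 37 °C of the labels. Further libraries came from ccr4Δ, pan2Δ and pop2Δ deadenylase mutants and from wild-type RNA that was or was not digested with Xrn1 before sequencing. For the AID, Pab1, ccr4Δ, pan2Δ and heated Mex67-AA groups the tables hold 1 column of pooled reads per group, and pop2Δ and the digested and undigested RNA were 1 library each, so these groups have no replicate error and only counting intervals are given for them. The study's strain list places the deadenylase mutants in another background than the labels do, and the descriptions of the pan2Δ samples name ccr4Δ. The labels give 25 °C for the deadenylase mutants and the wild-type RNA, whereas the names of the ccr4Δ, pan2Δ and wild-type pool columns give 30 °C, as the study's list of libraries does for all of these groups.

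Total reads, with ENO2 left out, were 188519 to 2184459 in the Mex67-AA chase libraries, 25838 to 668505 in the heat chase, 320726 to 777753 in the thiolutin chase and 978487 to 5485510 in the pooled columns. ENO2 was left out because the study treated it as contaminated by a spike-in. Its share of the reads was 0% in every library of Mex67-AA replicate C and up to 27.9% in the other Mex67-AA libraries. In heat replicate D the 0 min and 4 min libraries held only 86022 and 25838 reads, so the fold changes of DHH1, DCP2, DCP1 and the entry shared by EDC2 are also given without that replicate.

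Removal of the cap commits an mRNA to degradation from its 5′ end in yeast, normally after the pA-tail has been shortened. Dcp2 is the catalytic subunit of the decapping enzyme and Dcp1 its obligate partner. Edc1, Edc2 and Edc3 enhance decapping, the DEAD-box helicase Dhh1 and the scaffold protein Pat1 promote it, Lsm1 belongs to the Lsm1-7 ring that binds the 3′ ends of shortened mRNAs together with Pat1, and Kem1 (Xrn1) is the 5′ to 3′ exonuclease that digests the decapped RNA.

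3 stretches of sequence bear on how these genes were counted, and are shown 5′ to 3′ on the coding strand from the R64 genome, in lower case with the stop codon in capitals. The first and second are the last 60 coding bases, stop codon included, of DCP2 (chrXIV:402652-402711, minus strand) and of KEM1 (chrVII:175527-175586, minus strand). They are shown because the strain list writes the AID tag after these gene names, that is at the end of the coding sequence. Direct RNA reads begin downstream of this site. The third is the part of the EDC1 coding sequence (chrVII:80659-80790, minus strand) that lies beyond the end of the EDC1 entry to which reads were aligned.
DCP2: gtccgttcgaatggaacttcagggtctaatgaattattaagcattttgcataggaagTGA
KEM1: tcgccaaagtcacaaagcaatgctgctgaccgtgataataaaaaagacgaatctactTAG
EDC1: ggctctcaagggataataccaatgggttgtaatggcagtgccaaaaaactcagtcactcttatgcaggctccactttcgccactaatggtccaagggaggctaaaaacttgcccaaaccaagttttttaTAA
The EDC1 entry runs from 80791 to 81230 on chromosome VII, so it lacks the last 132 coding bases and the whole 3′ region where a direct RNA read starts. Its 2 reads fell in 2 different libraries, and none of the pooled columns held a read under this entry. The 0 of 5485510 reads in the wild-type pool allow up to 0.547 RPM, as counting error only, for molecules that align to this entry. The expression of EDC1 itself was therefore not measured by this entry. The shared entry that covers EDC2 lies at 221826 to 223225 on chromosome V, and its reads cannot be divided between EDC2 and YER034W.

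The 7 measured genes were expressed at middling to high levels, with LSM1 and KEM1 the highest. In the untreated Mex67-AA cells, LSM1 averaged 98.9 ± 18.2 and KEM1 97.0 ± 25.8 RPM (SD, n = 3), and these did not differ beyond their spread. EDC3 followed with 54.7 ± 14.9, PAT1 with 49.6 ± 25.0, DCP2 with 48.9 ± 12.2 and DCP1 with 42.1 ± 15.5 RPM, again with spreads that overlapped. DHH1 was the lowest with 25.9 ± 12.4 RPM, close to the median of 27.3 over 5327 mRNAs. Divided by the length of the entry, LSM1 had 103 and DCP1 56.6 RPM per kilobase, against 18.6 for KEM1 and 10.7 for DHH1. Because reads count molecules here whatever their length, these values per kilobase do not rank the genes by abundance. KEM1 had the most reads of the 7 in 29 of the 46 libraries with their own column and LSM1 in 16. The remaining library was Mex67-AA replicate C at 30 min, where DCP1 led with 41 reads.

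Before heat, KEM1 was the highest of the 7 in wild-type cells. It averaged 111 ± 8.49, PAT1 74.2 ± 12.5, LSM1 72.4 ± 18.0, DHH1 32.1 ± 8.08, EDC3 30.4 ± 16.3, DCP2 28.9 ± 5.25 and DCP1 16.3 ± 14.5 RPM (SD, n = 3). DCP1 had no read in the thin 0 min library of replicate D.

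Tails also differed between the genes. In the untreated Mex67-AA cells the mean tail was 54.0 adenosines for DHH1 (2 libraries with enough reads) and, over 3 libraries, 46.8 for PAT1, 40.7 for DCP2, 39.8 for EDC3, 38.7 for KEM1, 36.4 for DCP1 and 33.5 for LSM1. Among the 19 libraries in which all 7 genes had a tail value, DHH1 had the longest mean tail in 15 and LSM1 the shortest in 8. The DHH1 tail was 42.6 in Dcp2-AID, 45.6 in Xrn1-AID and 50.4 in the AID control, against medians over mRNAs of 32.5, 34.9 and 38.1 adenosines in the same columns.

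Depletion of Dcp2 or of Xrn1 was each set against the shared control to ask how the transcriptome changes when decapping or 5′ digestion is removed. Reads of the tagged gene itself were about 10-fold lower in its own strain and not in the other. DCP2 had 8 reads in Dcp2-AID cells (8.18 RPM), against 154 reads in the control (87.8 RPM), a ratio of 0.0986 (95% counting interval 0.0395 to 0.188). In Xrn1-AID cells DCP2 had 90 reads (88.2 RPM), a ratio to the same control of 1.01 (0.766 to 1.31). KEM1 mirrored this: 12 reads in Xrn1-AID cells (11.8 RPM), against 262 reads in the control (149 RPM), a ratio of 0.0818 (0.0402 to 0.140), and 216 reads (221 RPM) in Dcp2-AID cells, a ratio of 1.48 (1.23 to 1.78). In these strains the gene carries the tag at the site printed above, and the part of the altered 3′ end in the read counts was not tested. Ratios here have 0.5 reads added to each count, and a gene counts as changed when the ratio is at least 2 or at most 0.5 with at least 10 reads in one of the groups. In these bulk samples fewer molecules per cell and a smaller share of the library cannot be told apart.

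Beside the tagged gene, DHH1 was the only one of the 7 past 2-fold in Dcp2-AID cells, with 84 reads (85.8 RPM), against 52 reads (29.6 RPM) in the control, a ratio of 2.89 (2.03 to 4.17). Of 5810 transcripts, 21.8% were higher by this rule and 2.46% lower. KEM1 and LSM1 had ratios of 1.48 and 1.59, and PAT1 1.34, beside a median log2 ratio of 0.42 over all transcripts. With trimmed-mean (TMM) scaling, which centres the bulk of transcripts, DHH1 stayed past 2-fold at 2.12, while KEM1 and LSM1 were at 1.08 and 1.17. In Xrn1-AID cells DHH1 had a ratio of 1.26 (0.804 to 1.95), and KEM1 itself was the only one of the 7 past 2-fold. In that comparison 13.8% of 5693 transcripts were higher and 9.82% lower. Set directly against Xrn1-AID, Dcp2-AID cells had a higher DHH1 RPM, with a ratio of 2.29 (1.55 to 3.48), which became 1.75 with TMM scaling. KEM1 had a ratio of 18.1 (10.53 to 36.9) in the same comparison, and EDC3 was lower at 0.541 (0.371 to 0.774), which became 0.415 with TMM scaling. In this direct comparison 21.6% of 5747 transcripts were higher and 6.56% lower.

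Tails in Dcp2-AID cells were shorter by at least 5 adenosines for DHH1 (42.6, against 50.4 in the control), LSM1 (30.5, against 37.5) and KEM1 (31.2, against 36.5). DCP1 went the other way with a mean of 45.8 adenosines, against 36.8 in the control, although its median tail was longer by only 2.5. Among 5412 transcripts 55.5% had a mean tail shorter by at least 5 and 2.57% longer. In Xrn1-AID cells DCP2 (31.2, against 39.8) and EDC3 (32.8, against 39.7) were shorter by at least 5 adenosines, beside 34.3% of 5187 transcripts, and 6.57% of them had a longer mean tail. The DCP1 tail in Dcp2-AID cells was also longer than the 39.8 adenosines in Xrn1-AID cells, by 6.01, beside 7.36% of 5215 transcripts longer by at least 5 in that comparison.

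**Figure D1:**
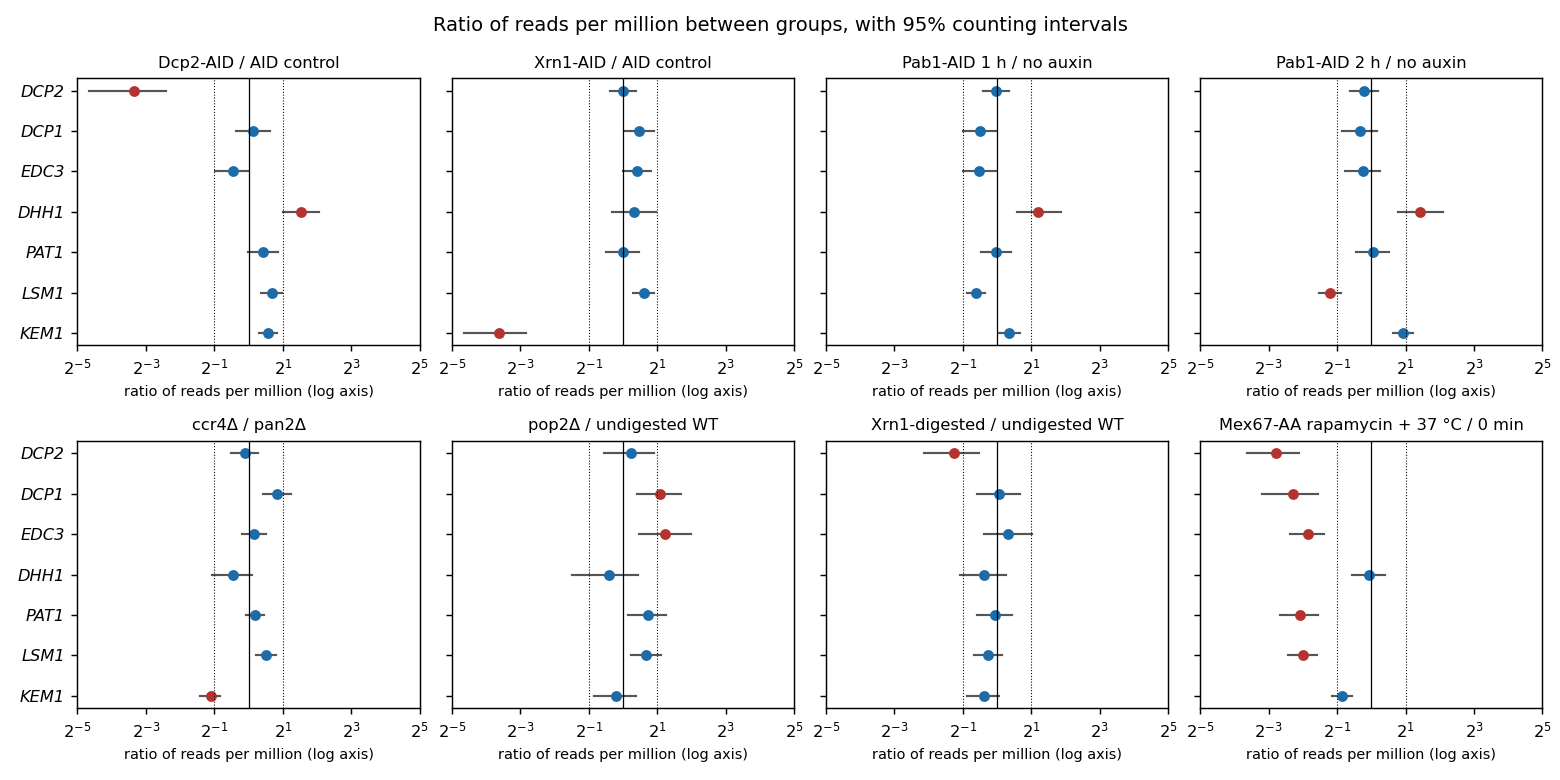
Ratio of RPM (log axis) between the groups named above each panel, for each of the 7 genes, with 95% counting intervals as lines; points past 2-fold (dotted lines) are red. DCP2 and KEM1 sit near 0.1 in their own depletion strain, and DHH1 lies above 2 in Dcp2-AID cells and in both Pab1-AID panels.

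Depletion of Pab1, the main pA-binding protein, was followed by longer tails of all 7 genes. DCP2 had a mean tail of 35.6 adenosines without auxin, 56.5 at 1 h and 57.2 at 2 h. LSM1 had 32.4, 49.3 and 48.8, and DCP1 40.5, 57.6 and 57.0 adenosines at the same times. The smallest difference at 1 h was 8.63 adenosines for PAT1 and at 2 h 5.37 for DHH1, so that 7 of 7 were longer by at least 5 at each time. The share of all transcripts with tails longer by that much was 82.9% of 4942 at 1 h and 85.8% of 4732 at 2 h, and tails shorter by that much were found in 1.36% and 1.94%.

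Of the 7, DHH1 alone was past 2-fold at 1 h, and DHH1 and LSM1 at 2 h, beside 5.03% and 11.8% of transcripts in either direction. DHH1 had 29 reads (16.7 RPM) without auxin, 82 (38.8) at 1 h and 72 (44.9) at 2 h, ratios to the cells without auxin of 2.29 (1.5 to 3.67) and 2.66 (1.72 to 4.29). Of 5253 transcripts only 1.64% were higher by 2-fold at 1 h, and of 5183 transcripts 2.84% at 2 h. LSM1 fell to 68.6 RPM at 2 h, against 159 without auxin, a ratio of 0.434 (0.343 to 0.541) that was 0.501 with TMM scaling. KEM1 had a ratio of 1.88 (1.54 to 2.32) at 2 h, which was 2.18 with TMM scaling. Lower transcripts were 3.39% at 1 h and 8.95% at 2 h. Between 2 h and 1 h none of the 7 was past 2-fold, beside 4.05% of 5236 transcripts, 1.74% higher and 2.31% lower.

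**Figure D2:**
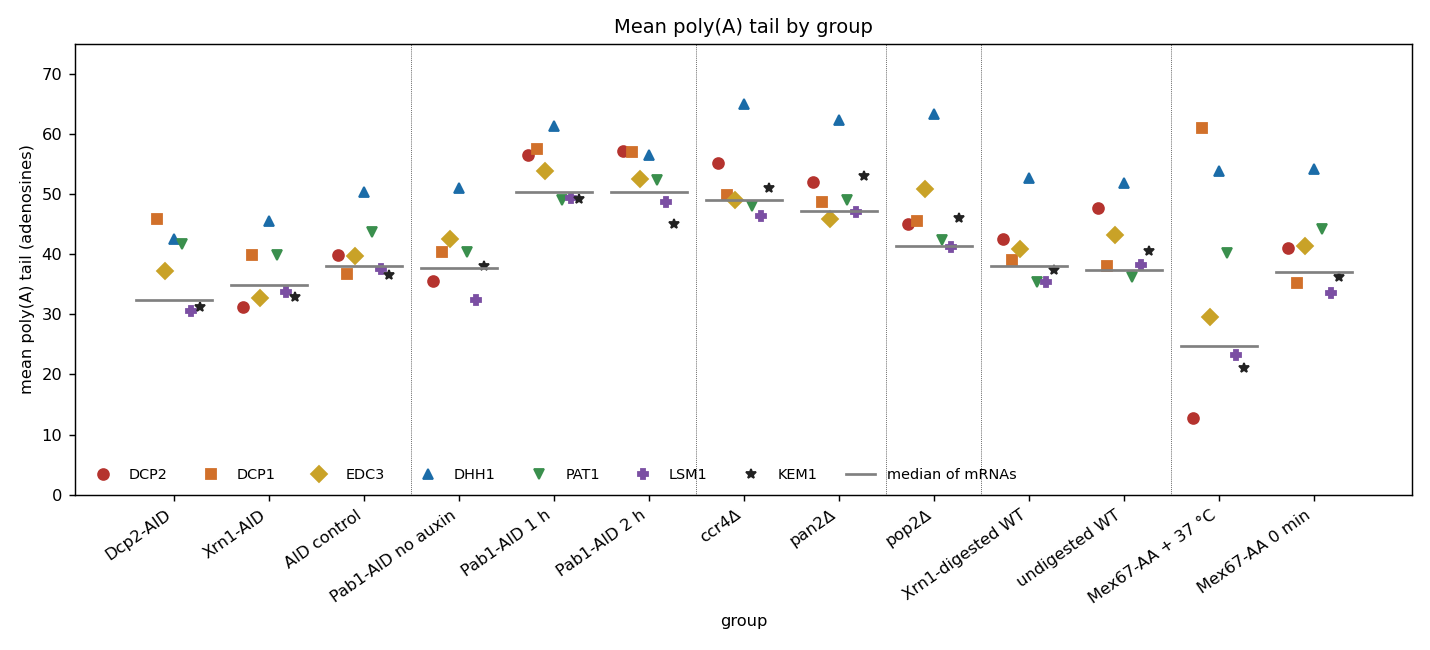
Mean pA-tail in adenosines (vertical axis) of the 7 genes in each group or library (horizontal axis), with a grey line at the median of the mean tails of all mRNAs in the same column; only values from at least 10 reads are drawn. All 7 genes lie higher at 1 h and 2 h of Pab1 depletion than without auxin, and DHH1 has the longest tail of the 7 in 10 of the 13 groups shown.

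The Mex67-AA chase followed transcripts after new mRNA stopped reaching the cytoplasm. DCP2 declined in all 3 replicates. In replicate A it had 56.3, 15.9, 19.9, 3.32, 1.89 and 8.45 RPM at 0, 8, 12, 14, 16 and 30 min. In replicate B the values were 34.8, 36.7, 4.30, 5.16, 4.85 and 6.85 at 0, 4, 10, 12, 14 and 20 min, and in replicate C 55.6, 50.9, 25.1, 4.13 and 7.31 at 0, 4, 8, 16 and 30 min. Every library from 8 min on was below every 0 min library, while the 4 min libraries overlapped with them.

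Summed per replicate, DCP2 had 5.41, 4.81 and 17.6 RPM at 8 to 16 min, against 56.3, 34.8 and 55.6 at 0 min. The log2 fold change was -1.92 (SE 0.353, adjusted p = 0.000575, edgeR's quasi-likelihood test with Benjamini-Hochberg adjustment over 4200 transcripts), lower in 3 of 3 replicates. At 20 to 30 min it was -1.36 (SE 0.389, adjusted p = 0.00797, edgeR). Without replicate A both calls were lost, with adjusted p = 0.0630 at 8 to 16 min and 0.0800 at 20 to 30 min (edgeR, 2 replicates). Over the 9 alternatives the adjusted p ran from 7.03e-06 to 0.0630 and from 7.32e-05 to 0.0800 (edgeR or DESeq2). In the same fits 18.5% of transcripts were called higher and 21.0% lower at 8 to 16 min, and 21.6% higher and 28.4% lower at 20 to 30 min. These fold changes are relative to the bulk of transcripts: scaling by library totals in place of TMM moved the median of all transcripts by -0.80 at 8 to 16 min and by -1.28 at 20 to 30 min. With totals the calls were 80 higher and 2339 lower at 8 to 16 min, and 204 higher and 3114 lower at 20 to 30 min, against 779 and 880, and 908 and 1194, with TMM.

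EDC3 had 3.38, 10.97 and 10.2 RPM at 20 to 30 min, against 71.4, 50.0 and 42.7 at 0 min, with no overlap. Its log2 fold change was -1.55 (SE 0.387, adjusted p = 0.00329, edgeR) at 20 to 30 min and -0.79 (SE 0.312, adjusted p = 0.0534, edgeR) at 8 to 16 min. Without replicate A the later value was -0.99 (adjusted p = 0.124, edgeR, 2 replicates). The earlier one passed with totals (-1.60, adjusted p = 0.00213, edgeR) and without replicate B (-0.97, adjusted p = 0.0392, edgeR). Adjusted p ran over the alternatives from 0.00213 to 0.402 for the earlier value and from 5.24e-05 to 0.124 for the later one (edgeR or DESeq2).

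DCP1 had 7.91, 10.3 and 26.4 RPM at 8 to 16 min, against 31.6, 34.8 and 59.8 at 0 min. The log2 fold change of -0.86 (SE 0.356, adjusted p = 0.0619, edgeR) did not pass, though it did with totals (-1.66, adjusted p = 0.00246, edgeR) and with each library as a sample (-0.84, adjusted p = 0.0381, edgeR), and the alternatives reached from 0.00246 to 0.324 (edgeR or DESeq2). At 20 to 30 min DCP1 had 14.4 and 7.54 RPM in replicates A and B but 60.0 in replicate C, and its log2 fold change of 0.27 turned to -0.27 without replicate C and to -1.02 with totals.

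DHH1 had 25.4, 28.1 and 16.1 RPM at 20 to 30 min, against 23.3, 39.3 and 15.0 at 0 min, and the groups overlapped. Relative to the bulk of transcripts it was called higher at 20 to 30 min, with a log2 fold change of 1.16 (SE 0.350, adjusted p = 0.0111, edgeR), but the value was -0.12 with totals (adjusted p = 0.757, edgeR). The call was also lost without replicate A (0.87, adjusted p = 0.201, edgeR) and without the replicate letter as a block (1.09, adjusted p = 0.0745, edgeR), and over the alternatives adjusted p ran from 0.00469 to 0.757 (edgeR or DESeq2). At 8 to 16 min DHH1 had a log2 fold change of 0.60 (adjusted p = 0.152, edgeR).

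KEM1, LSM1 and PAT1 were not called relative to the bulk of transcripts. KEM1 had 31.3, 37.0 and 17.6 RPM at 20 to 30 min, against 125, 74.1 and 91.9 at 0 min, without overlap, but its log2 fold change of -0.43 (SE 0.275, adjusted p = 0.196, edgeR) did not pass, though it did without replicate B (-0.75, adjusted p = 0.0452, edgeR, 2 replicates), over alternatives from 0.000181 to 0.642 (edgeR or DESeq2). LSM1 (-0.29, adjusted p = 0.353, edgeR) and PAT1 (-0.24, adjusted p = 0.570, edgeR) did not pass either. With totals KEM1, LSM1 and PAT1 were called lower at 20 to 30 min, with log2 fold changes of -1.72, -1.56 and -1.50. At 8 to 16 min KEM1, LSM1 and PAT1 had log2 fold changes of -0.18, 0.18 and 0.02, none of them past the threshold, and with totals these were -0.99, -0.62 and -0.79.

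**Figure D3:**
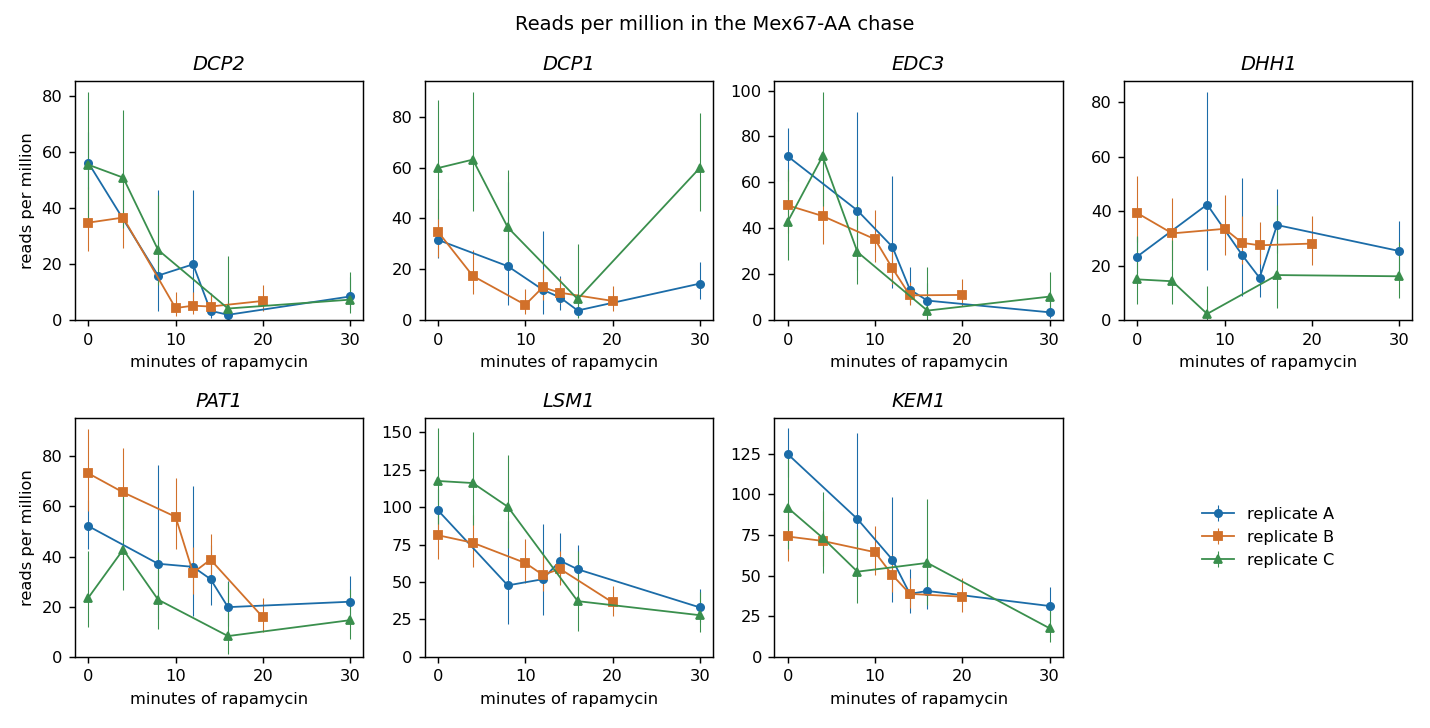
RPM (vertical axis, one panel per gene) against minutes of rapamycin in the Mex67-AA chase, with 1 line per replicate and 95% counting intervals as bars. DCP2 lies between 1.89 and 25.1 RPM in all libraries from 8 min on, below its 0 min values of 34.8 to 56.3.

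The decay constants of the chase gave half-lives that spread more than 3-fold over the genes. DCP2 had 2.52, 3.67 and 5.09 min in replicates A, B and C, a mean of 3.76 ± 1.28 min (SD, n = 3), at percentile 7.85 of 2994 mRNAs ordered from the shortest. EDC3 had 4.75 ± 0.52 min and DCP1 5.11 ± 0.61 min, and the ranges of DCP2, EDC3 and DCP1 overlapped. PAT1 had 9.25 ± 1.78 min and KEM1 10.2 ± 2.06 min, near the median of 9.40 min over mRNAs. LSM1 had the longest at 14.0 ± 1.76 min, with replicate values of 14.1, 15.7 and 12.2 min. All 3 replicate values of DCP2, EDC3 and DCP1 lay below all those of PAT1, KEM1 and LSM1. For DHH1 the replicates gave 7.64, 19.1 and 3.27 min, and its replicate C rests on 7 reads at 0 min, so no half-life is given for it. The constants leave out pairs of time points between which the share of reads increased; with those kept, DCP2 had 4.99 min, EDC3 5.78 min, DCP1 8.74 min, KEM1 10.7 min, PAT1 13.8 min and LSM1 18.4 min.

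**Figure D4:**
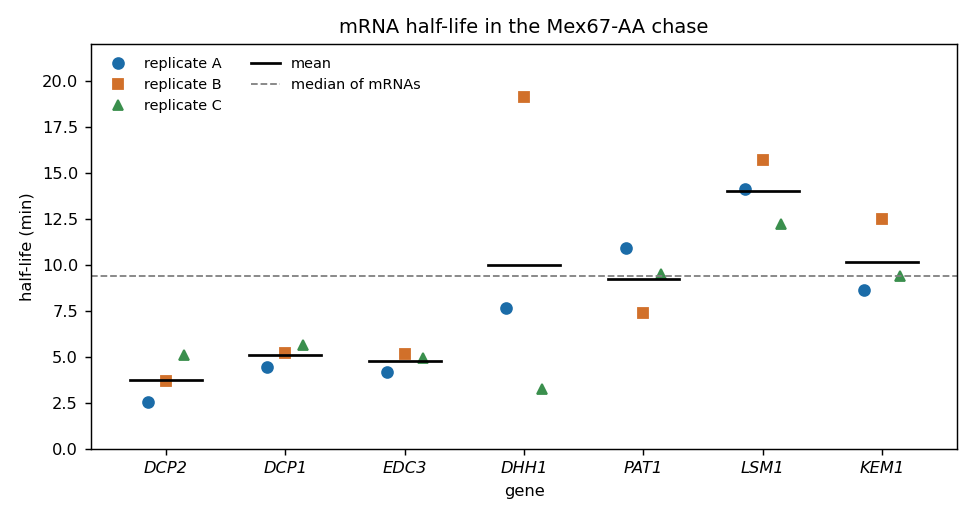
Half-life in minutes (vertical axis) of each gene (horizontal axis) in the Mex67-AA chase, with 1 symbol per replicate, a bar at their mean and a dashed line at the median over mRNAs (9.40 min). DCP2, DCP1 and EDC3 lie below the line in all 3 replicates and LSM1 above it, while the DHH1 values scatter from 3.27 to 19.1 min.

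Tails of PAT1 and KEM1 shortened during the chase. PAT1 had 27.7, 31.0 and 38.7 adenosines at 8 to 16 min, against 46.3, 41.3 and 52.7 at 0 min in replicates A, B and C, with no overlap. The difference of -14.3 adenosines (SE 3.19, adjusted p = 0.0389, limma) passed over 2098 mRNAs, as did the one for KEM1 of -11.7 (SE 3.01, adjusted p = 0.0475, limma), which had 24.0, 27.1 and 29.9 adenosines at 8 to 16 min, against 35.6, 38.7 and 41.8 at 0 min. Shorter tails were called for 6.39% of these mRNAs and longer ones for 1.10%, beside a median difference of -6.71 adenosines. Both calls were lost without replicate A (adjusted p = 0.335 for each, limma) and without replicate B (adjusted p = 0.337 for PAT1 and 0.486 for KEM1, limma), the alternatives starting at 0.00112 for PAT1 and 0.00725 for KEM1. EDC3 had a difference of -11.2 (adjusted p = 0.0581, limma), which passed with the median tail (-14.6, adjusted p = 0.0107, limma; alternatives 0.00227 to 0.483), and LSM1 one of -4.05 (adjusted p = 0.332, limma). DCP2, DCP1 and DHH1 had too few reads in at least 1 replicate for this test.

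Late in the chase the tails of KEM1 and DCP1 lay on opposite sides of their 0 min values. At 30 min KEM1 had mean tails of 15.3 and 19.8 adenosines in replicates A and C, and 23.9 in replicate B at 20 min, against 35.6, 41.8 and 38.7 at 0 min in replicates A, C and B. PAT1 had 76.3 and 79.5 adenosines in the same libraries, from 26 and 10 reads, above its 0 min values of 46.3 and 52.7, but in replicate B at 20 min it had 41.0, from 23 reads, against 41.3 at 0 min. DCP1 had 77.1 and 69.1 adenosines at 30 min and 71.2 in replicate B at 20 min, against 36.7, 40.1 and 32.5 at 0 min in replicates A, C and B, from 17, 41 and 11 reads. No test was made of these late tails. The study left the terminal times of its Mex67-AA chases out of its tail modelling. Its reason was that a few nuclear mRNAs with overlong tails weigh more once cytoplasmic mRNA is lost. The part of such molecules in the long tails of DCP1 and PAT1 was not tested.

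The heat chase asked how transcripts responded to 37 °C in wild-type cells. DHH1 was the only one of the 7 called in any window with TMM scaling and all 3 replicates. In replicate A it had 23.0, 19.1, 53.4, 89.4, 102 and 40.4 RPM at 0, 2, 6, 10, 14 and 18 min, and in replicate B 38.4, 49.9, 98.3, 77.8, 122 and 79.4 at 0, 4, 8, 12, 16 and 20 min. In replicate D the values were 34.9, 0, 94.7, 77.1, 89.8 and 33.7 at the same times, the 0 at 4 min coming from the library of 25838 reads, in which 3 reads would be 116 RPM. Every library between 8 and 16 min was above every 0 min library.

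Summed per replicate, DHH1 had 97.0, 99.2 and 85.5 RPM at 10 to 16 min, against 23.0, 38.4 and 34.9 at 0 min. Its log2 fold change was 1.16 (SE 0.321, adjusted p = 0.00862, edgeR over 4216 transcripts), higher in 3 of 3 replicates. In this window 21.3% of transcripts were called higher and 22.3% lower. Without the thin replicate D the value was 1.2 (adjusted p = 0.00178, edgeR), but the call was lost without replicate A (0.95, adjusted p = 0.0855, edgeR) and without replicate B (1.39, adjusted p = 0.0636, edgeR), and the alternatives ran from 0.000476 to 0.0855 (edgeR or DESeq2). At 2 to 8 min the log2 fold change was 0.94 (SE 0.332, adjusted p = 0.0813, edgeR) and at 18 to 20 min -0.01 (SE 0.367, adjusted p = 0.990, edgeR), the last turning to 0.64 with totals. Without replicate D these were 0.77 (adjusted p = 0.121, edgeR) and 0.14 (adjusted p = 0.792, edgeR). The calls over all transcripts were 8.23% higher and 3.32% lower at 2 to 8 min, and 15.1% higher and 16.8% lower at 18 to 20 min.

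DCP2 was not called on heating. It had 52.7, 65.3 and 54.1 RPM at 10 to 16 min, against 33.6, 29.9 and 23.2 at 0 min, without overlap. Its log2 fold changes of 0.61, 0.45 and 0.48 at 2 to 8, 10 to 16 and 18 to 20 min did not pass (adjusted p of 0.160, 0.206 and 0.217, edgeR), nor did those without replicate D, of 0.57, 0.34 and 0.48 (adjusted p of 0.237, 0.378 and 0.278, edgeR). Scaling by totals moved the median of all transcripts by 0.10, 0.48 and 0.64 in the same windows, and with it DCP2 passed at 10 to 16 min (0.94, adjusted p = 0.00886, edgeR) and at 18 to 20 min (1.14, adjusted p = 0.00462, edgeR). With totals the calls were 1725 higher and 644 lower at 10 to 16 min, and 1842 higher and 397 lower at 18 to 20 min, against 898 and 940, and 636 and 707, with TMM.

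DCP1 had 16.6, 10.4 and 22.7 RPM at 10 to 16 min, against 21.2, 27.8 and 0 at 0 min. Its log2 fold change of -0.84 (SE 0.513, adjusted p = 0.202, edgeR) did not pass, but without the thin replicate D it was -1.31 (adjusted p = 0.0185, edgeR). KEM1, LSM1, PAT1 and EDC3 had log2 fold changes between -0.40 and 0.10 in the 3 windows and none was called. With totals KEM1 was called higher at 18 to 20 min (0.67, adjusted p = 0.0155, edgeR), and EDC3, PAT1 and LSM1 turned from negative to positive values there and at 10 to 16 min without passing. None of the 7 had a tail value in every replicate and window of the heat chase, because replicate D had fewer than 10 reads of each at 0 min, so their tails were not tested. In replicates A and B KEM1 had 42.8 and 46.1 adenosines at 10 to 16 min, against 33.6 and 35.0 at 0 min, whereas PAT1 had 39.6 and 39.1, against 43.1 and 35.6.

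**Figure D5:**
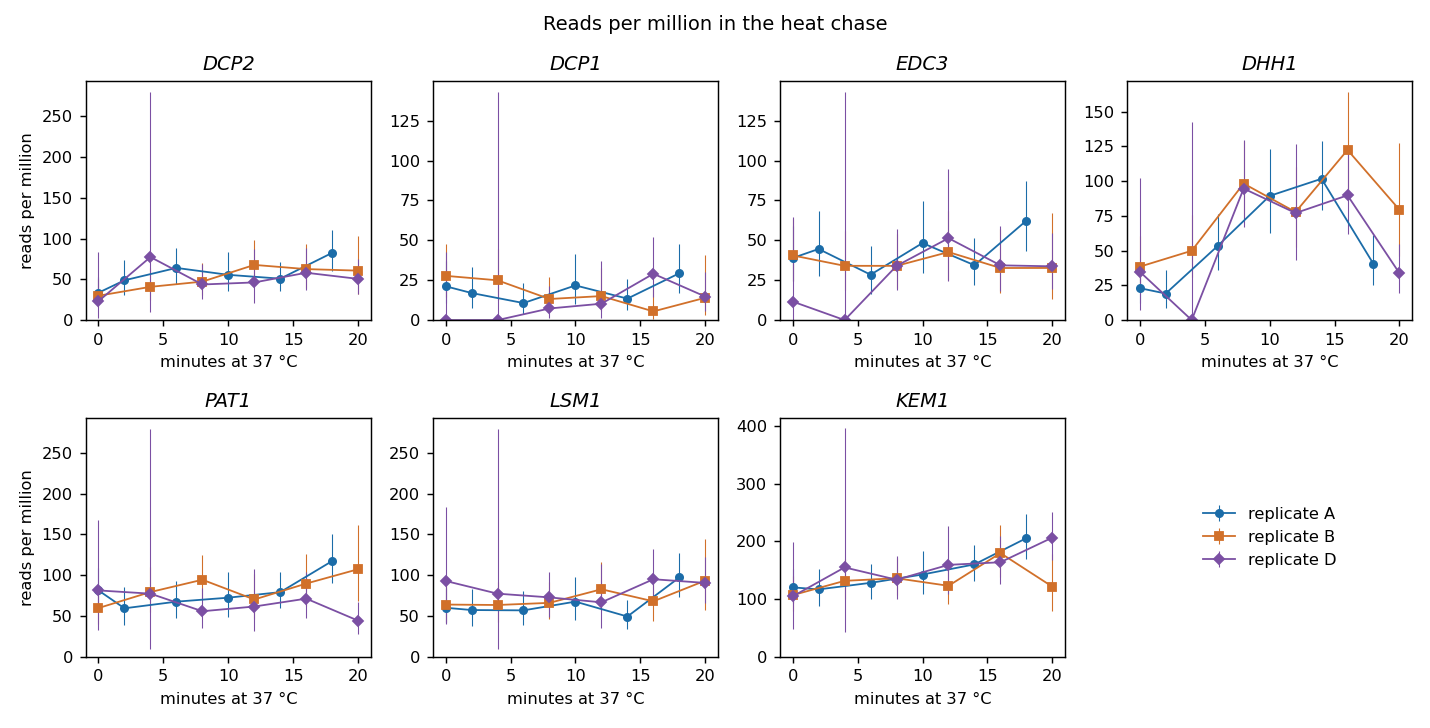
RPM (vertical axis, one panel per gene) against minutes at 37 °C in wild-type cells, with 1 line per replicate and 95% counting intervals as bars. DHH1 stands between 77.1 and 122 RPM in all libraries from 8 to 16 min, above its 0 min values of 23.0 to 38.4; the wide bars of replicate D at 0 and 4 min belong to its 2 thin libraries.

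When heat was combined with the export block in Mex67-AA cells, 5 of the 7 genes were below 0.5 of their level, beside 68.1% of transcripts past 2-fold in either direction. The reference here is the sum of the 0 min libraries of replicates A and B of the Mex67-AA chase, so both sets of values share those cells. DCP2 had 17 reads (6.92 RPM) in heated cells with rapamycin, against 162 reads (49.0) at 0 min, a ratio of 0.145 (0.0802 to 0.233). DCP1 (0.204), PAT1 (0.236), LSM1 (0.253) and EDC3 (0.275) were also below 0.5, KEM1 had 0.556 (0.455 to 0.675), and DHH1 had 0.95 (0.683 to 1.31). Of 5452 transcripts 64.6% were lower and 3.45% higher by 2-fold, with a median log2 ratio of -1.55. With TMM scaling DCP2 (0.347) and DCP1 (0.490) stayed lower, DHH1 was higher at 2.28, and EDC3, PAT1, LSM1 and KEM1 were at 0.660, 0.566, 0.607 and 1.33.

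Tails of DCP2 in these heated cells averaged 12.7 adenosines from 17 reads, against 41.0 at 0 min. KEM1 (21.0, against 36.3), EDC3 (29.6, against 41.4) and LSM1 (23.2, against 33.5) were shorter as well. DCP1 had a mean tail of 60.9 adenosines from 16 reads, against 35.2 at 0 min, and the mean tail of DHH1 (53.9, against 54.2) differed by 0.35 although its median tail was shorter by 15. Among 3682 transcripts 67.3% had a mean tail shorter by at least 5 and 19.1% longer.

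In the thiolutin chase, with 1 replicate and no test, none of the 7 was past 2-fold at 12 to 20 min, and DCP2 was at 30 to 60 min. DCP2 had 27.1, 39.9, 37.5, 52.7, 28.0, 49.4, 54.5 and 65.5 RPM at 0, 4, 8, 12, 16, 20, 30 and 60 min. Its ratio was 2.14 (1.22 to 4.06) at 30 to 60 min and 1.63 (0.988 to 2.99) at 12 to 20 min. With ENO2 kept, whose share of the reads was 4.34% to 39.7% over these libraries, the later ratio was 1.95. The rule called 21.6% of 4432 transcripts higher and 25.3% lower at 30 to 60 min, and 10.2% of 4904 higher and 16.7% lower at 12 to 20 min. DHH1 tails had means of 50.8, 48.1, 46.5, 62.0, 68.9, 63.6, 67.9 and 72.9 adenosines over the same times, so that the values from 12 min on were all above the earlier ones. The pooled DHH1 tail at 30 to 60 min was longer by 19.5 adenosines than at 0 min, beside a median difference of 3.45 over 2730 transcripts, of which 40.0% were longer and 14.1% shorter by at least 5.

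Among the deadenylase mutants, ccr4Δ lacks the catalytic subunit Ccr4 of the Ccr4-Not complex and pan2Δ that of the Pan2-Pan3 deadenylase. KEM1 was lower in ccr4Δ than in pan2Δ, with 136 reads (58.0 RPM), against 363 reads (126 RPM), a ratio of 0.462 (0.376 to 0.563) that was 0.367 with TMM scaling. The other 6 lay between 0.725 and 1.79, the highest being DCP1 at 1.79 (1.35 to 2.38). Of 5758 transcripts 23.2% were higher and 2.62% lower. Against the wild-type pool of another table, a comparison added after the data were seen that includes the reads under the second set of names, none of the 7 was past 2-fold in either strain, beside 6.04% higher and 4.45% lower in ccr4Δ, and 1.21% higher and 14.7% lower in pan2Δ, of all transcripts, and KEM1 had a ratio of 0.551 in ccr4Δ and 1.18 in pan2Δ. No mean tail differed by 5 adenosines between ccr4Δ and pan2Δ, beside 23.6% of 5137 transcripts longer and 16.8% shorter. Against the wild-type pool the mean tails of the 7 were longer by 2.64 (PAT1) to 13.6 (DCP2) adenosines in ccr4Δ. In pan2Δ they were longer by 2.64 (EDC3) to 12.0 (KEM1) adenosines. The tail values, unlike the ratios, leave out the reads under the second set of names. Of all transcripts 63.4% in ccr4Δ and 61.2% in pan2Δ were longer by at least 5, and 2.34% and 4.7% shorter. The DHH1 tail was the longest of the 7 in both, with 65.0 adenosines in ccr4Δ and 62.4 in pan2Δ.

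In pop2Δ, which lacks the other catalytic subunit of Ccr4-Not, DCP1 had 34 reads (97.5 RPM), against 59 reads (46.7) in undigested wild type, a ratio of 2.10 (1.33 to 3.24), and EDC3 a ratio of 2.37 (1.38 to 3.96). By this rule 28.7% of 5002 transcripts were higher and 2.90% lower. The median log2 ratio over all transcripts was 0.60. With TMM scaling DCP1 and EDC3 were at 1.36 and 1.53 and DHH1 was lower at 0.483. ENO2 made up 1.2% of the reads in pop2Δ and 36.2% in undigested wild type. Keeping it raised the ratios of all transcripts by the same factor, to 3.26, 3.67, 2.57 and 2.49 for DCP1, EDC3, PAT1 and LSM1. The share of all transcripts past 2-fold is not given for either scaling, so these values do not set the genes apart. Mean tails in pop2Δ were longer by at least 5 adenosines for DHH1 (63.4, against 51.9), DCP1 (45.6, against 38), EDC3 (50.8, against 43.2), PAT1 (42.3, against 36.2) and KEM1 (46.0, against 40.5), beside 42.7% of 3900 transcripts longer and 6.54% shorter.

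Purified Xrn1 digests RNA molecules that have no cap. DCP2 was the only one of the 7 past 2-fold between digested and undigested wild-type RNA, beside 9.58% of transcripts. It had 18 reads (22.3 RPM) in digested RNA, against 69 reads (54.6) in undigested RNA, a ratio of 0.417 (0.229 to 0.694). A second listing of the digested library, added as an alternative after the data were seen, gave 0.411 (0.241 to 0.658), but with ENO2 kept the ratio was 0.639. The other 6 lay between 0.761 and 1.26, and 6.56% of 5012 transcripts were lower and 3.01% higher. The mean tail of DCP2 was 42.6 adenosines in digested RNA, against 47.7 in undigested RNA, beside 11.9% of 4198 transcripts shorter and 18.2% longer by 5. By the second listing 6.82% of 5047 transcripts were lower and 2.36% higher.

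Across the 46 libraries with their own column the transcripts of the 7 genes did not run as one group. Pearson correlations of log2 RPM (with 1 added) between pairs of them ran from -0.10 (DCP1 with KEM1) to 0.75 (DCP2 with KEM1). These libraries share experiments, time courses and depth, and the values describe them without a test. Among 3020 mRNAs with a median of at least 10 reads, those most like each gene included SFB3 for KEM1 (r = 0.91), CYC8 (0.91) and RIM101 (0.90) for DCP2, ISC1 (0.91) and YGR017W (0.90) for EDC3, CPS1 (0.87) for DHH1, BPL1 (0.84) and YDR262W (0.84) for PAT1, YGL041W-A (0.83) and SHE3 (0.81) for DCP1, and PAM16 (0.83) and MRPL37 (0.81) for LSM1. The entry shared by YOR014W and YOR015W was the next most like KEM1 (0.89).

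A list of 25 further decapping and 5′ decay partners and one of 14 exosome and Ski complex genes, which act in 3′ decay, place the 7 genes in the wider pathway. In the Mex67-AA chase at 20 to 30 min, 3 of the 23 partners tested were called higher and 6 lower, with a median log2 fold change of -0.35, and none of the 13 3′ decay genes was higher and 11 were lower, with a median of -2.21, beside -0.33 over all transcripts, of which 21.6% were called higher and 28.4% lower. STM1, which encodes a ribosome-bound protein, was higher by 1.84 (SE 0.155, adjusted p = 9.96e-08, edgeR) and SBP1, a translational repressor, by 1.88 (SE 0.2, adjusted p = 6.15e-07, edgeR). RPS28B, whose mRNA decay is controlled through Edc3, was higher by 2.03 (SE 0.173, adjusted p = 1.03e-07, edgeR). Of the lower partners RAI1 had the smallest adjusted p, with -2.53 (SE 0.450, adjusted p = 0.000203, edgeR). The exosome subunits RRP42 and RRP45 were lower at -2.78 (SE 0.320, adjusted p = 1.53e-06, edgeR) and -3.39 (SE 0.429, adjusted p = 4.57e-06, edgeR). These values too are relative to the bulk of transcripts, and scaling by library totals moved the median of all transcripts by -1.28 in this window. In the earlier window 3 partners were higher and 3 lower, and 5 of the 3′ decay genes were lower, beside 18.5% and 21.0% of all transcripts.

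On heating, DCS2, an inhibitor of the scavenger decapping enzyme Dcs1, was higher by 6.17 at 10 to 16 min (SE 0.738, adjusted p = 2.03e-05, edgeR) and DCS1 by 1.86 (SE 0.362, adjusted p = 0.000729, edgeR). RPS28B was lower at -1.06 (SE 0.216, adjusted p = 0.00103, edgeR). These were among 2 higher and 8 lower of 24 partners tested in that window, and 8 of 12 3′ decay genes were lower, with medians of -0.39 and -1.07, beside 0.11 over all transcripts, of which 21.3% were called higher and 22.3% lower. At 2 to 8 min 1 partner was higher and 2 were lower, and 3 of the 3′ decay genes were lower, beside 8.23% higher and 3.32% lower of all transcripts. At 18 to 20 min 2 partners were higher and 7 lower, and 4 of the 3′ decay genes were lower, beside 15.1% higher and 16.8% lower of all transcripts.

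In Dcp2-AID cells 3 of the 25 partners were past 2-fold, all higher, beside 21.8% of all transcripts higher: DCS2 with a ratio of 3.08 (2.5 to 3.83), and NMD4 (2.47) and EBS1 (2.33), which both act in nonsense-mediated decay. In Xrn1-AID cells DCS2 was lower instead, with a ratio of 0.383 (0.247 to 0.561), 6 partners were higher, and 5 of the 14 3′ decay genes were higher, beside 13.8% of all transcripts. None of the 3′ decay genes was past 2-fold in Dcp2-AID cells, and the difference between the strains was not tested. The medians of the partners were 0.31 in Dcp2-AID and 0.46 in Xrn1-AID cells on the log2 scale, beside 0.42 and 0.13 over all transcripts. At 2 h of Pab1 depletion, 1 partner was higher and 4 were lower, and 4 of the 3′ decay genes were lower, beside 2.84% higher and 8.95% lower of all transcripts. In heated Mex67-AA cells 1 of 25 partners was higher and 15 partners and 14 of 14 3′ decay genes were lower, beside 64.6% of all transcripts lower.

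The entry that covers both EDC2 and YER034W is given for completeness. Under it 4.995, 6.34 and 7.35 RPM were counted at 8 to 16 min of the Mex67-AA chase, against 27.5, 21.4 and 25.6 at 0 min (log2 fold change -1.24, SE 0.386, adjusted p = 0.0175, edgeR). On heating it had 36.8, 44.3 and 41.1 RPM at 2 to 8 min, against 8.84, 10.7 and 11.6 at 0 min (2.01, SE 0.435, adjusted p = 0.00721, edgeR), and 1.94 without replicate D (adjusted p = 0.00227, edgeR). The heat call was lost without replicate A (1.97, adjusted p = 0.0570, edgeR) and without replicate B (2.11, adjusted p = 0.198, edgeR), and adjusted p ran from 0.000169 to 0.198 over the alternatives (edgeR or DESeq2). The chase call was lost without replicate A (-1.12, adjusted p = 0.178, edgeR), without replicate C (-1.13, adjusted p = 0.0691, edgeR) and with DESeq2 (-1.15, adjusted p = 0.0958), over a range from 0.00113 to 0.178. The shared entry was higher in pop2Δ than in undigested wild type with a ratio of 3.10 (1.69 to 5.59), beside 28.7% of all transcripts. In ccr4Δ against pan2Δ its ratio was 2.03 (1.40 to 3.00), beside 23.2% higher. In heated Mex67-AA cells it was lower at 0.103 (0.0343 to 0.218), beside 64.6% lower. TMM values are not given for these ratios. At 1 h of Pab1 depletion its mean tail was longer by 8.25 adenosines, beside 82.9% longer. At 2 h it was shorter by 6.48, beside 1.94% shorter.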

How the data were processed

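Direct RNA libraries were prepared and analysed by the authors, who aligned the reads with minimap2 2.17 to a yeast transcriptome (sacCer3 per the labels), filtered them with SAMtools 1.9, estimated pA-tails with Nanopolish, and for several conditions pooled replicates or runs. The deposited values are whole read counts per transcript and, on another scale, mean or median tail lengths in adenosines. 94 samples were listed; 46 had a column of their own and 11 groups a pooled column, given as the authors' values. 914 of 1320 value columns were not used, because their names matched no sample, repeated another column or held quantiles. EDC1 and EDC2 had no usable entry of their own.

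ENO2 reads were dropped. Reads of each replicate were summed over the windows 0, 8 to 16 and 20 to 30 min (Mex67-AA) or 0, 2 to 8, 10 to 16 and 18 to 20 min (heat), and tested with edgeR 4.0.16 (quasi-likelihood, TMM, filterByExpr, replicate letter as block) in R 4.3.3, with Benjamini-Hochberg adjustment and a threshold of 0.05. Mean tails were tested with limma 3.58.1. Pooled or single groups had no test: ratios carry exact 95% intervals for 2 Poisson counts, which cover counting error only. Half-lives followed the study's method (ln ratio between pairs of times within a replicate, a missing count set to 0.01 reads, 0 min set to the onset time the study gives, constants of 0 or less removed). Tests were checked on simulated data. DESeq2 1.42.0, other scalings, filters, tail summaries and leaving out each replicate were tried as alternatives. The replicate letters stand for separate experiments of 1 strain, so p-values measure the spread between them. That spread includes differences in time, because the letters were sampled at different minutes within a window. Members and lists were chosen with earlier results of these data known. Named genes are the members, the 2 mRNAs most correlated with each (1 of these is not reported here), and up to 4 genes a comparison from 2 lists, those called with the smallest adjusted p or the largest ratio. Gene positions and sequences are from R64.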

Additional observations from a re-analysis of the deposited data

Results flagged for a closer look

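The pooled wild-type column holds a second set of transcript names beside the ones used above, with 598289 reads, or 10.9% of its reads. Beyond the library total, these entered only the ratios of ccr4Δ and pan2Δ to this column, and not the tails. Reads above the 3-read limit of a count of 0 were found there under 7 of the 9 gene names: 56 for KEM1, 48 for DCP1, 47 for EDC3, 16 for PAT1, 8 for DCP2, 4 for EDC1 and 4 for EDC2.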

How the results depend on the processing

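The chase fits have the replicate letter as a block. Deviations from the group means of same-lettered samples correlated at 0.0362 to 0.502 in the Mex67-AA chase and -0.353 to 0.469 in the heat chase. For samples of different letters the ranges were -0.500 to 0.292 and -0.430 to 0.392. Same-lettered and other pairs thus overlapped in both chases, and nearly wholly in the heat chase. With no replicate block the calls were 956, against 1659, in the Mex67-AA chase at 8 to 16 min, and for tails 628, against 157; for heat tails they were 64 and 142 at 2 to 8 and 10 to 16 min, against 27 and 0 (limma, the 0 beside 291 at an unadjusted p under 0.05). No paired analysis was possible because the AID, Pab1, deadenylase and heated Mex67-AA groups have pooled columns.

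With library totals 3318 transcripts were called at 20 to 30 min of the Mex67-AA chase and 2239 at 18 to 20 min of heat. Log2 fold changes that turned sign with totals were, in the Mex67-AA chase at 8 to 16 min, -0.24 (DHH1), -0.79 (PAT1) and -0.62 (LSM1), and at 20 to 30 min -1.02 (DCP1) and -0.12 (DHH1). On heating they were 0.03 (PAT1) at 2 to 8 min, 0.15 (EDC3), 0.14 (PAT1), 0.073 (LSM1) and 0.45 (KEM1) at 10 to 16 min, and 0.012 (DCP1), 0.35 (EDC3), 0.64 (DHH1), 0.37 (PAT1) and 0.48 (LSM1) at 18 to 20 min. Near 0, KEM1 on heating at 10 to 16 min was 0.056 with no filter, 0.029 with ENO2 kept and 0.0031 with each library as a sample, and DHH1 at 18 to 20 min was 0.023 with DESeq2, 0.054 with no filter, 0.048 with ENO2 kept and 0.023 with each library as a sample. Each library as a sample gave 253 calls at 2 to 8 min of heat.

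For tails, a minimum of 20 reads gave 483 calls in the Mex67-AA chase and 90 and 135 on heating, and the median tail 758 and, at 10 to 16 min of heat, 174. The median half-life over the 7 genes, the unstable DHH1 value included, was 9.25 min, and 10.7 min with increases kept; without DHH1 it was 7.18 and 9.72 min. Genes past 2-fold numbered 4 with ENO2 kept and 1 with TMM scaling in pop2Δ, 0 with ENO2 kept after digestion and at 30 to 60 min of thiolutin, and 3 with TMM scaling in heated Mex67-AA cells. With the median tail, 2 genes changed by 5 adenosines between Dcp2-AID and Xrn1-AID, 1 between 2 h and 1 h of Pab1 depletion, 3 in pop2Δ and 0 after digestion. The shares of all transcripts under these settings are not given. These counts therefore show only how each setting moved the 7 genes, and not whether they differed from other transcripts.

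Leaving out each replicate gave 191 to 1637 calls in the Mex67-AA chase at 8 to 16 min, 933 to 2105 at 20 to 30 min and 0 to 1710 for tails, the lowest value without replicate A each time and the 1710 without replicate C, and on heating 72 to 623, 875 to 2037 and 500 to 1600 calls in the 3 windows, lowest without replicate B, and 0 each time for tails at 2 to 8 min. The median half-life of the 7 was 5.45 min without replicate B, which is the value of DHH1 itself, and up to 9.14 min otherwise, and 6.93 to 7.03 min without DHH1. Signs turned for PAT1 (-0.053 to 0.12 at 8 to 16 min and -0.52 to 0.30 at 20 to 30 min) and DCP1 (-0.27 to 0.79 at 20 to 30 min) in the Mex67-AA chase, and on heating for PAT1 (-0.41 to 0.20) and EDC3 (-0.29 to 0.064) at 2 to 8 min, KEM1 (-0.11 to 0.10) at 10 to 16 min, and EDC3 (-0.52 to 0.059), DHH1 (-0.092 to 0.14) and KEM1 (-0.14 to 0.27) at 18 to 20 min. The cause of these shifts was not tested. Of the remaining values of single genes, 529 kept their side of the threshold or moved by less than their error, 17 newly passed, 11 no longer passed and 47 moved further. Depth limits the genes with few reads: over the 46 libraries the median was 11.5 reads for DCP1, 17.5 for EDC3 and 19 for DCP2.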
